A study of Mus musculus with 3 samples.

Results

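The integrated stress response is the programme by which animal cells slow general protein synthesis and turn on amino acid supply and repair when nutrients, protein folding or heme run short. Kinases of the initiation factor eIF2 start it, and the transcription factor ATF4 carries it to the genome, where ATF4 raises genes for amino acid synthesis, amino acid import and transfer RNA charging together with its own feedback inhibitors. ATF4 protein is set to a large degree by translation, so the level of the Atf4 transcript does not give the amount of the protein. In macrophages the programme is known from amino acid shortage, endoplasmic reticulum stress and inflammatory activation.

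Atf4 and 9 genes known as its targets or partners were taken by symbol from a deposited table of 20574 gene symbols. Of these 10 genes 9 had a row, and Ddit3, which encodes the stress factor CHOP, was not analysed here. The 9 were Atf4 itself, the feedback and stress regulators Trib3 and Chac1, the mTORC1 inhibitors Ddit4 and Sesn2, and the amino acid enzymes Asns, Phgdh, Psat1 and Shmt2. The mean of the 3 libraries was 1 FPKM or more for all 9, and 6 of them were above 0 in every library.

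The RNA came from primary mouse peritoneal macrophages grown in DMEM and labelled WT, with 1 library for each of 3 conditions. The macrophages were untreated, cocultured for 5 h with apoptotic cells at 5 per macrophage, or given 100 ng/ml of LPS, the bacterial lipid that triggers Toll-like receptor 4, for 5 h. Apoptotic cells left outside the macrophages were rinsed away before RNA extraction, per the series' design text, and how many macrophages had taken one up, or how much RNA of the dying cells remained, is not given there. The labels give no time for the untreated library, no strain, age or number of mice, and no source of the dying cells, so treatment, time and handling cannot be told apart in a comparison with the untreated library.

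Levels are FPKM, a fragment count divided by transcript length and by library size, so that genes can be compared with each other. Where 3 values follow each other without further words, their order is untreated, apoptotic cells, LPS. The spacing of the lowest values implied about 1 read per 0.313 to 0.337 FPKM on 1 kb of transcript, or 3.19, 3.16 and 2.97 reads per FPKM on that length. The 95% intervals below are exact Poisson or binomial (Clopper-Pearson) intervals on read numbers estimated in this way. They cover counting error only, since without replicates the spread between cultures is unknown and no p-value can be given. An exact 0 in these tables can be a failed estimate: Eef1a1, the elongation factor that every cell translates with, was listed at 5641 FPKM without treatment and at 0 in both treated libraries. A gene at 0 is therefore reported as listed at 0 and enters no ratio. Such 0 values were most frequent without treatment, where they took 38.6% of the genes that each treated library had above 0. The matching shares were 18.6% for the apoptotic-cell library and 21.9% for the LPS library. Ratios to untreated therefore leave out more genes than the direct comparison of the treated libraries.

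Markers of the labelled cell type were incomplete, since 3 of 8 macrophage markers were analysed. Csf1r, the receptor for macrophage growth factor, was listed at 56.3, 185 and 0 FPKM. Mast cell and B cell markers summed highest in the untreated library: 8 analysed mast cell genes summed to 95.7 FPKM there against 14.0 with apoptotic cells and 10.4 with LPS, and 11 B cell genes to 649, 199 and 195 FPKM. Ly6d made up 563 FPKM of the untreated B cell sum but 42.7 and 73.9 FPKM of the others. The 11 T cell and thymocyte genes summed to 31.0, 96.4 and 2.21 FPKM, but the 2 of them above 0 in all libraries to 17.0, 14.8 and 0.355 FPKM, since the full sums count a listed 0 as a value. For 8 neutrophil genes the full sums were 119, 325 and 496 FPKM. Most of this was S100a8, at 48.1, 116 and 222 FPKM, and Lcn2, at 64.1, 187 and 272 FPKM. The mesothelial and fibroblast list of 8 reached 22.6 FPKM at most. The mast cell gene Ms4a2, the neutrophil gene Elane and the fibroblast gene Lum were listed at 0 in all 3 libraries. In such bulk RNA, fewer cells of a type and less RNA per cell cannot be told apart.

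The 6 genes above 0 in every library, Atf4 among them, had their lowest value in the macrophages kept with apoptotic cells. For Ddit4 the interval overlapped that with LPS. The remaining genes with a row had a listed 0. Against the untreated library, 5 of the 6 genes above 0 in both stood 2-fold or more lower and 0 were higher, where 16.4% of 3369 genes were at least 2-fold lower and 12.4% higher. Thresholds and log2 ratios, here and below, were taken after adding 1 FPKM to each value, which shrinks the ratios of low genes. They cover genes whose mean over the libraries was 1 FPKM or more. The median log2 ratio of the 6 was -2.05, beside -0.13 for all genes. Among all genes at least 2-fold apart in this comparison 43.0% were higher, or 56.4% after median-of-ratios scaling.

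Atf4 stood at 245 FPKM in the untreated library, 64.8 FPKM with apoptotic cells and 240.0 FPKM with LPS. It was the most abundant of the 9 genes in every library, above 98.6%, 93.9% and 98.4% of the genes with a value above 0. The untreated and LPS libraries were level, and the apoptotic-cell library lay apart from both. Atf4 was 3.78-fold lower with apoptotic cells than without treatment (interval 3.33 to 4.29, log2 ratio -1.90), and 4.93% of all genes had a lower ratio. Its value with LPS was 0.980 times the untreated one (interval 0.901 to 1.06, log2 ratio -0.03), although median-of-ratios scaling put that log2 ratio at 0.59. Atf4 has no annotated overlapping gene on chromosome 15, where it lies from 80255184 to 80257541 in mm10.

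**Figure D1:**
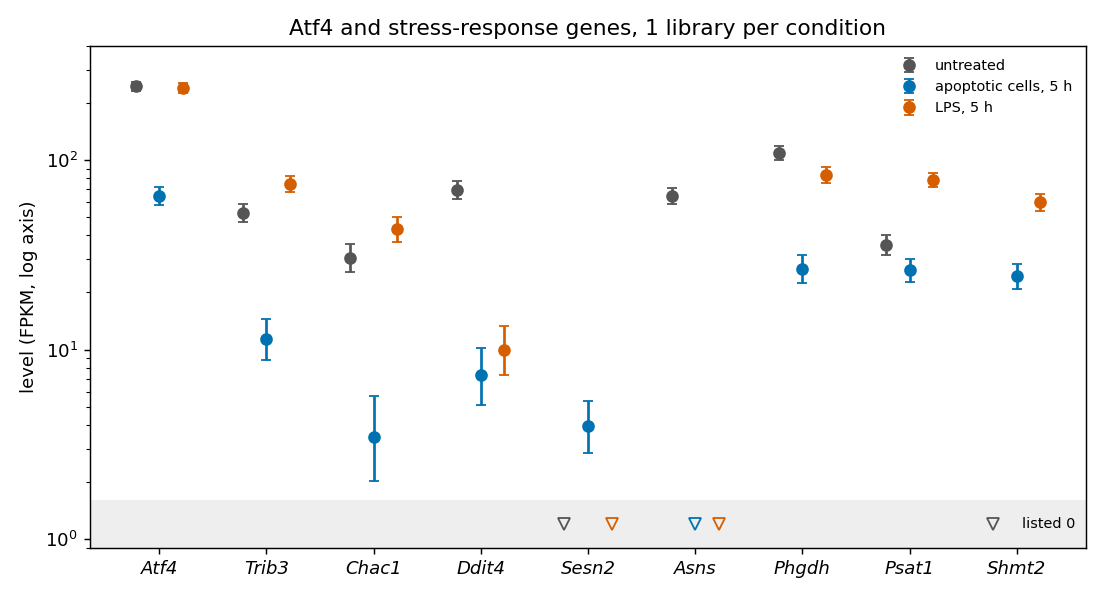
Level of each gene in FPKM (log axis) in the 3 libraries, 1 point per library, with 95% Poisson intervals on estimated reads. Open triangles in the grey band are values listed as 0. Atf4, Trib3, Chac1 and Phgdh are lowest with apoptotic cells, and Ddit4 is low with both treatments.

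Trib3 encodes a pseudokinase that ATF4 induces and that holds ATF4 activity back. It was at 52.6 FPKM untreated, 11.4 FPKM with apoptotic cells and 74.6 FPKM with LPS. Chac1 encodes an enzyme that degrades glutathione and is among the most responsive ATF4 targets. Its levels were 30.4, 3.45 and 43.2 FPKM in the same order. Both genes were highest in the LPS library and lowest in the apoptotic-cell library.

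With apoptotic cells Trib3 was 4.62-fold lower than untreated (interval 3.52 to 6.11, log2 ratio -2.11) and Chac1 8.82-fold lower (interval 5.15 to 15.6, log2 ratio -2.82). The Chac1 value with apoptotic cells rests on an estimated 16 reads, against 140 untreated and 184 with LPS, which is why its interval is the widest. With LPS, Trib3 was 1.42 times (interval 1.22 to 1.65) and Chac1 1.42 times (interval 1.13 to 1.78) the untreated level, both under the 2-fold threshold. After median-of-ratios scaling these log2 ratios were 1.11 and 1.10, past the threshold. Neither gene overlaps another annotated gene. Trib3 lies on chromosome 2 from 152337422 to 152344032 and Chac1 on the same chromosome from 119351229 to 119354381.

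ATF4 binds composite elements with C/EBP partners whose usual core reads TGATGNAA, and the promoters of the 10 genes were searched for it. RefSeq promoter windows of 300 bases (250 before and 50 after the start, build GRCm38.p6) were found for all 10 genes and searched on both strands. The core TGATGNAA matched in 3 of 10 genes (Chac1, Asns and Trib3), where 3.97% of 32851 windows hold it. A looser form, TGNNGCAA, chosen after these windows were seen and overlapping the core where its N is C, matched in 4 (Chac1, Trib3, Psat1 and Sesn2), beside 11.4% of all windows. The palindrome TGACGTCA matched in 0 of 10 genes and 1.79% of windows. Stretches of 4 of the promoters with a match, all before the start, are printed 5′ to 3′ on the gene's strand, with matches to either of the first pair of motifs, on either strand, in capitals.
Chac1, chr2:119350992-119351082, plus strand: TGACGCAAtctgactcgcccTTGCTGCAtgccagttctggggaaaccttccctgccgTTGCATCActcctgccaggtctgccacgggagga
Trib3, chr2:152344061-152344119, minus strand: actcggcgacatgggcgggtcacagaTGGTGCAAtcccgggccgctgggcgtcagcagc
Psat1, chr19:15925162-15925221, minus strand: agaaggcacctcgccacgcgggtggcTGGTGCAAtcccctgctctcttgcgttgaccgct
Asns, chr6:7693210-7693258, minus strand: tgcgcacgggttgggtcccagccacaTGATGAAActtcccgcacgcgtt

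Chac1 held 3 matches, of which TTGCATCA matches the core on the other strand. Trib3 and Psat1 carry the same 8 bases, TGGTGCAA, at -33 to -26 and at -136 to -129 from the start. With apoptotic cells Trib3 was 4.62-fold and Psat1 1.36-fold lower than untreated. The part of the motif matches in the expression values was not tested. Another Trib3 match, to the core, lies after the start at 14 to 21. No match to the 3 motifs was found in the windows of Atf4, Ddit4, Phgdh, Shmt2 and Ddit3, which says only that these letters are not within those 300 bases.

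Ddit4 was low with both treatments, whereas Atf4 was low with apoptotic cells and level with LPS. Ddit4 encodes REDD1, which restrains mTORC1 and is also induced by hypoxia and glucocorticoids. It stood at 69.5 FPKM untreated, 7.34 FPKM with apoptotic cells and 9.99 FPKM with LPS. Both treated libraries were low and their intervals overlapped (5.12 to 10.1 and 7.30 to 13.3 FPKM), while the untreated library was far above them.

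Against the untreated library Ddit4 was 9.47-fold lower with apoptotic cells (interval 6.72 to 13.8) and 6.96-fold lower with LPS (interval 5.11 to 9.69). These were log2 ratios of -3.08 and -2.68, lower than those of 99.4% and 97.8% of genes in the respective comparisons. Both comparisons use the same untreated library, so its value enters both. Ddit4 lies on chromosome 10 from 59949669 to 59951834. Sesn2, which encodes the leucine sensor that inhibits mTORC1 through GATOR2, reached 3.96 FPKM (interval 2.84 to 5.37) with apoptotic cells and was listed at 0 elsewhere, so it has no ratio. It lies on chromosome 4 from 132492032 to 132510501.

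Other genes that respond to the same cues as Ddit4 were uneven. Of 7 hypoxia genes with a ratio, 2 were 2-fold or more below the untreated level with apoptotic cells, beside 16.4% of all genes, and 0 above it: Adm, the vasodilator adrenomedullin, at 2.58 against 64.3 FPKM, and Vegfa at 10.99 against 24.7 FPKM. Glucocorticoid-responsive genes were 2-fold lower or more with LPS in 2 of 4 cases, beside 26.2% of all genes. Tsc22d3, the glucocorticoid-induced leucine zipper gene, was at 37.0 FPKM untreated, 30.9 FPKM with apoptotic cells and 2.08 FPKM with LPS, and Fkbp5 at 17.7, 13.7 and 4.24 FPKM. These 2 were the only genes of the list with a ratio to untreated with apoptotic cells, and 0 of them were at least 2-fold apart there. Dusp1 was listed at 28.7, 0 and 37.6 FPKM and Sgk1 at 52.4, 0 and 54.4 FPKM. The part of hypoxia or glucocorticoids in the Ddit4 values was not tested.

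The enzymes of serine and asparagine synthesis divided. Phgdh, which takes the first step from glycolysis to serine, was at 109 FPKM untreated, 26.7 FPKM with apoptotic cells and 83.2 FPKM with LPS. With apoptotic cells it was 4.08-fold lower than untreated (interval 3.40 to 4.94, log2 ratio -1.99). Its log2 ratio with LPS was -0.39, which became 0.23 after median-of-ratios scaling, so no direction is given. Phgdh lies on chromosome 3 from 98313170 to 98339990.

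Psat1, which takes the second step of the same pathway, was at 35.6 FPKM untreated, 26.2 FPKM with apoptotic cells and 78.5 FPKM with LPS. It was the one of the 6 genes that was less than 2-fold lower with apoptotic cells, at 1.36-fold (interval 1.13 to 1.64, log2 ratio -0.43). It was also the one that was at least 2-fold higher with LPS, at 2.202-fold (interval 1.90 to 2.56, log2 ratio 1.12). The ratio of Phgdh to Psat1 therefore differed between libraries: Phgdh was well above Psat1 in the untreated library, whereas with apoptotic cells (22.5 to 31.4 and 22.6 to 30.0 FPKM) and with LPS (75.4 to 91.6 and 72.1 to 85.3 FPKM) their intervals overlapped. Psat1 lies on chromosome 19 from 15904678 to 15947337, and a pseudogene on the other strand within it shares no exon bases with it. The RefSeq start whose promoter is printed above lies inside that GENCODE span.

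Shmt2, the mitochondrial enzyme that passes a carbon of serine to folate, was listed at 0 in the untreated library, 24.4 FPKM with apoptotic cells and 60.0 FPKM with LPS. Asns, which makes asparagine and is a classic ATF4 target, had 64.7 FPKM (interval 58.3 to 71.5, an estimated 375 reads) without treatment and was listed at 0 with either treatment. Because abundant genes also carry a 0 here, nothing is read from either 0. Asns lies on chromosome 6 from 7675169 to 7693254 and Shmt2 on chromosome 10 from 127517123 to 127522444. Shmt2 shares 32 exon bases with Ndufa4l2 on the opposite strand, which was listed at 0 in all libraries.

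LPS left the group near the untreated level on balance. Of the 6 genes above 0 in both libraries, 1 was at least 2-fold higher (Psat1) and 1 lower (Ddit4), where 8.51% of 3421 genes were higher and 26.2% lower. The median log2 ratio of the 6 was 0.23, beside -0.40 for all genes, and after median-of-ratios scaling 3 were higher (Psat1, Trib3 and Chac1) with a median of 0.85. That scaling moved the median of all genes to 0.12 and the share of higher genes among those at least 2-fold apart from 24.5% to 59.9%. The direction of small LPS ratios therefore rests on the scaling.

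The direct comparison of the treated libraries, both labelled 5 h, does not use the untreated library. With apoptotic cells 6 of 7 genes were at least 2-fold lower than with LPS and 0 were higher, where 5.54% of 4599 genes were lower and 15.7% higher. The median log2 ratio was -1.60, beside 0.32 for all genes. Chac1 was 12.5-fold lower (interval 7.35 to 21.9), Trib3 6.56-fold (5.02 to 8.60), Atf4 3.71-fold (3.26 to 4.21), Phgdh 3.11-fold (2.57 to 3.80), Psat1 2.99-fold (2.55 to 3.55) and Shmt2 2.46-fold (2.04 to 2.98). Ddit4 was the exception, 1.36-fold lower with an interval of 0.862 to 2.17 that holds 1. Among all genes at least 2-fold apart 73.9% were higher with apoptotic cells, against 48.1% after median-of-ratios scaling, under which the same comparison of the 7 genes had a median of -2.005.

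**Figure D2:**
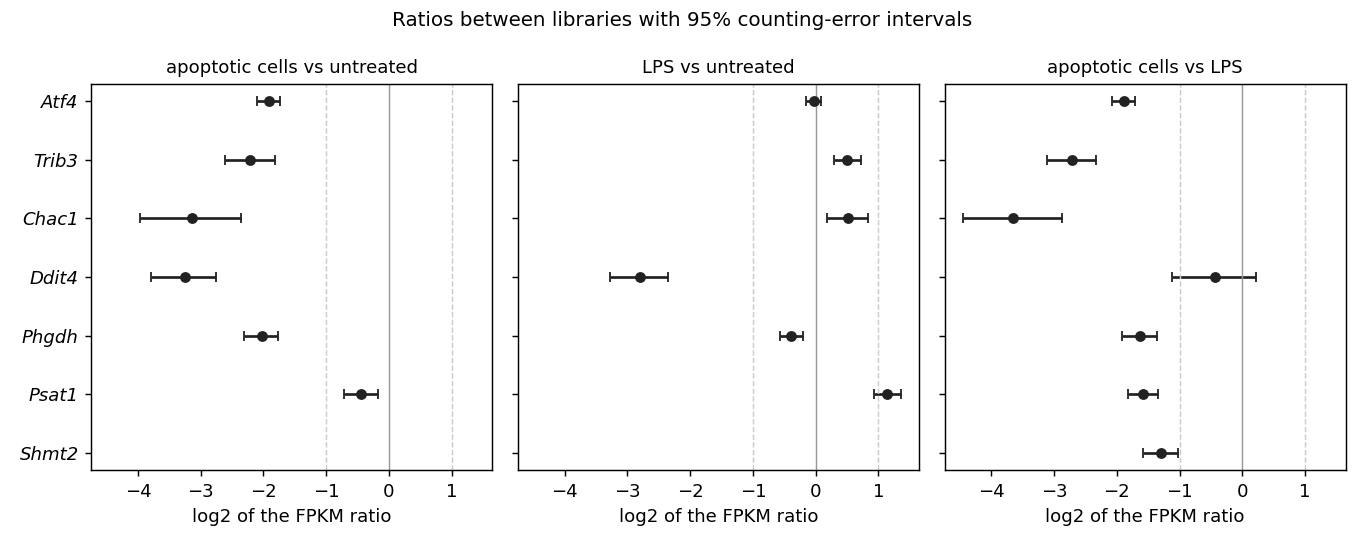
Log2 of the plain FPKM ratio in the 3 comparisons, with 95% binomial intervals on estimated reads, for genes above 0 in both libraries. Dashed lines mark 2-fold. Apoptotic cells lie to the left of 0 for the genes shown against both other libraries, with Ddit4 against LPS the interval that reaches 0.

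The cell markers moved differently in the 2 comparisons of apoptotic cells. Against the untreated library, 5 of 5 mast cell genes with a ratio were lower by 2-fold or more with apoptotic cells, beside 16.4% of all genes. So were 3 of 3 B cell genes with a ratio, Blnk, Cr2 and Ly6d, alongside the stress-response genes. A further 5 B cell genes were listed at 0 untreated and above 0 with apoptotic cells, among them Cd79b at 85.6 FPKM and Ms4a1 at 28.9 FPKM. Against LPS, 0 of 5 mast cell genes were at least 2-fold lower and 0 higher. Of 7 B cell genes with a ratio 0 were lower and 2 higher, where 5.54% of all genes were lower and 15.7% higher. T cell and thymocyte genes were at least 2-fold higher with apoptotic cells than with LPS in 5 of 5 cases, with Rag1 at 41.2 against 0.679 FPKM. The part of the mast cell, B cell, and T cell and thymocyte markers in the lower stress-response values was not tested.

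Within each library the 6 genes above 0 in all 3 summed to 542 FPKM untreated, 139.9 FPKM with apoptotic cells and 529.6 FPKM with LPS. Atf4 made up 45.2%, 46.3% and 45.3% of that sum. The shares of the others shifted: Psat1 held 6.57%, 18.7% and 14.8%, and Ddit4 12.8%, 5.25% and 1.89%. By level the order in the untreated library was Atf4, Phgdh, Ddit4, Asns, Trib3, Psat1 and Chac1, with overlapping intervals between Ddit4 and Asns, Asns and Trib3, and Psat1 and Chac1. With apoptotic cells it was Atf4, Phgdh, Psat1, Shmt2, Trib3, Ddit4, Sesn2 and Chac1, and neighbours differed beyond counting error between Atf4 and Phgdh and between Shmt2 and Trib3. With LPS it was Atf4, Phgdh, Psat1, Trib3, Shmt2, Chac1 and Ddit4, where Phgdh, Psat1 and Trib3 followed each other with overlapping intervals.

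Genes above 0 in all 3 libraries, with a mean of 1 FPKM or more, numbered 2891. Of these 106 (3.67%) lay 2-fold or more below untreated with apoptotic cells but under 2-fold with LPS, and 4 of the 6 stress-response genes were among them (Atf4, Trib3, Chac1 and Phgdh). Another 347 genes (12.003%) were 2-fold or more lower with both treatments, and 1 of the 6 stress-response genes was among them (Ddit4). Mast cell markers shared that direction: 6 of 6 were lower with LPS and 5 of 5 with apoptotic cells, beside 26.2% and 16.4% of all genes. Their part in the Ddit4 values was not tested.

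**Figure D3:**
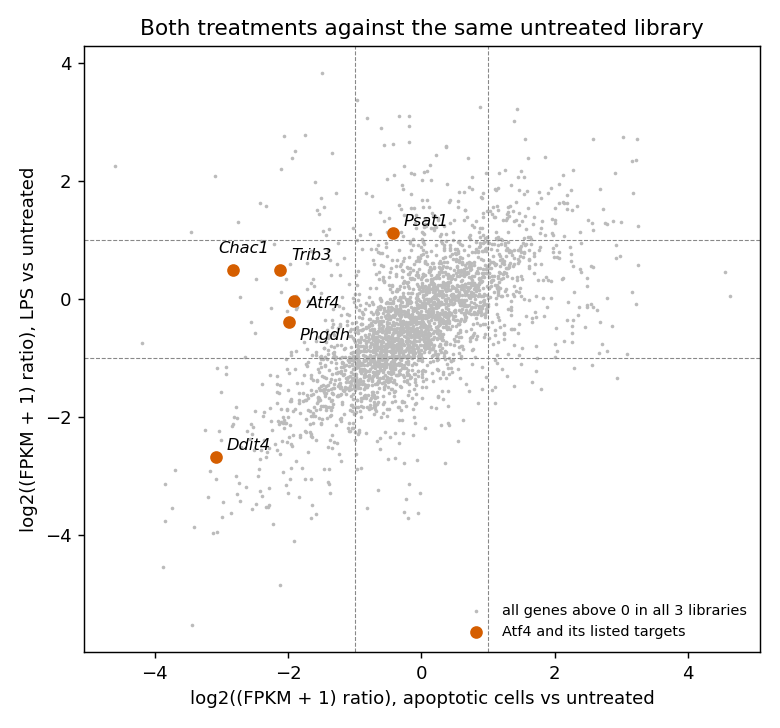
Log2((FPKM + 1) ratio) of each treatment against the same untreated library for genes above 0 in all 3 libraries (grey) and the 6 named genes (orange). Dashed lines mark 2-fold. Atf4, Trib3, Chac1 and Phgdh sit to the left at middle height, Ddit4 at the lower left, and Psat1 at -0.43 and 1.12.

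The genes whose pair of ratios lay closest to that of Atf4, by Euclidean distance over these 3 libraries and among 1133 genes above 0 in all libraries whose mean reached 10 FPKM, were Odc1, Ppp1r15a, Notch1, Rassf1, Traf5, Mthfd2, Bcl3 and Pmepa1. Odc1, the first enzyme of polyamine synthesis, stood at 75.7 FPKM untreated, 22.7 FPKM with apoptotic cells and 73.6 FPKM with LPS, a distance of 0.21. Ppp1r15a, which encodes the stress-induced subunit GADD34 of the eIF2 phosphatase, stood at 44.0, 9.49 and 48.0 FPKM, a distance of 0.25. Mthfd2, the mitochondrial folate enzyme that follows Shmt2, stood at 91.9, 21.9 and 116 FPKM, a distance of 0.38. The same 8 genes were nearest to the sum of the 6 genes. Atf4 made up 45.2%, 46.3% and 45.3% of that sum, so this is not a separate result.

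Upstream of Atf4, the eIF2 machinery gave few usable values. Of 17 genes in the list 15 were analysed and 5 had a ratio with apoptotic cells against untreated: 1 was at least 2-fold lower, Ppp1r15a (log2 ratio -2.10), and 1 higher, the kinase inhibitor gene Dnajc3 at 44.5 against 20.7 FPKM. The eIF2 alpha subunit gene Eif2s1 was steady at 25.3, 23.2 and 21.8 FPKM. Among the kinases, the heme-sensing Eif2ak1 was listed at 32.5 FPKM untreated and at 0 in both treated libraries, the endoplasmic reticulum kinase gene Eif2ak3 at 10.8 FPKM in the apoptotic-cell library alone, and the amino acid sensing Eif2ak4 at 1.24 FPKM in the LPS library alone. Eif2ak2 and Ppp1r15b were not analysed here. The kinases thus have no ratio.

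Partner factors with a ratio stayed within 2-fold of untreated with apoptotic cells or were higher. Atf3, a stress-induced relative, was at 48.9 FPKM untreated, 46.4 FPKM with apoptotic cells and 65.1 FPKM with LPS, and Atf5, which is also under translational control, at 59.5, 69.4 and 100.4 FPKM. Cebpg, a dimer partner of ATF4, was at 42.4, 42.1 and 31.3 FPKM. Of 5 genes in the list with a ratio, 0 lay 2-fold or more below untreated with apoptotic cells, beside 16.4% of all genes, and 1 above it, the myeloid factor gene Cebpa at 206 against 36.6 FPKM. Cebpb and the stress cofactor gene Nupr1 were listed at 89.3 and 37.4 FPKM untreated and at 0 in both treated libraries, and Jdp2 at 0 with apoptotic cells, so 3 of the 8 partners have no ratio there.

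Other genes linked to ATF4 were collected in 4 lists of amino acid transporters, amino acid and one-carbon enzymes, stress targets and cytosolic aminoacyl-tRNA synthetases, 65 genes in all. Of these 56 were analysed. With apoptotic cells 9 of the 21 that had a ratio were at least 2-fold lower than untreated and 0 were higher (median -0.95), and 12 of 31 were lower than with LPS and 1, Got2, was higher (median -0.87). With LPS 2 of 22 were higher and 2 lower than untreated (median 0.04). The background shares are those given above for the same comparisons.

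Among transporters, Slc7a1, the importer of arginine and lysine, was at 43.7 FPKM untreated, 7.02 FPKM with apoptotic cells and 55.3 FPKM with LPS. The neutral amino acid transporter gene Slc1a4 was at 18.8, 1.37 and 7.80 FPKM. Slc3a2, the heavy chain shared by several exchangers, departed from both: it was at 207, 191 and 896 FPKM, highest with LPS. Of 9 transporter genes analysed, 4 had a ratio with apoptotic cells against untreated, and 2 of them were at least 2-fold lower. The other 5 were listed at 0 untreated and above 0 with apoptotic cells. Among these, Slc38a2 was at 31.0 FPKM, Slc1a5 at 27.4 FPKM and Slc7a5 at 13.0 FPKM with apoptotic cells. Slc7a11, the cystine importer gene, was not analysed here.

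Among enzymes 4 of 7 lay 2-fold or more below the untreated level with apoptotic cells: Mthfd2, Mthfd1l (5.52 against 18.5 FPKM), the alanine transaminase gene Gpt2 (1.75 against 9.09 FPKM) and Cth, which makes cysteine. Cth was at 2.60 FPKM untreated, 0.214 FPKM with apoptotic cells and 9.25 FPKM with LPS. Of the synthetases 3 of 7 were lower, Iars (9.15 against 44.4 FPKM), Yars (13.8 against 49.1 FPKM) and Nars (43.7 against 89.3 FPKM), while Dars and Rars had log2 ratios of 0.23 and 0.15. Nars, at -1.01, lies at the threshold and Gars, at -0.99, just short of it. The other 9 of 16 synthetases analysed were listed at 0 untreated and above 0 with apoptotic cells. Among the stress targets Gdf15, a secreted stress cytokine, was listed at 0 untreated, 26.6 FPKM with apoptotic cells and 147 FPKM with LPS.

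**Figure D4:**
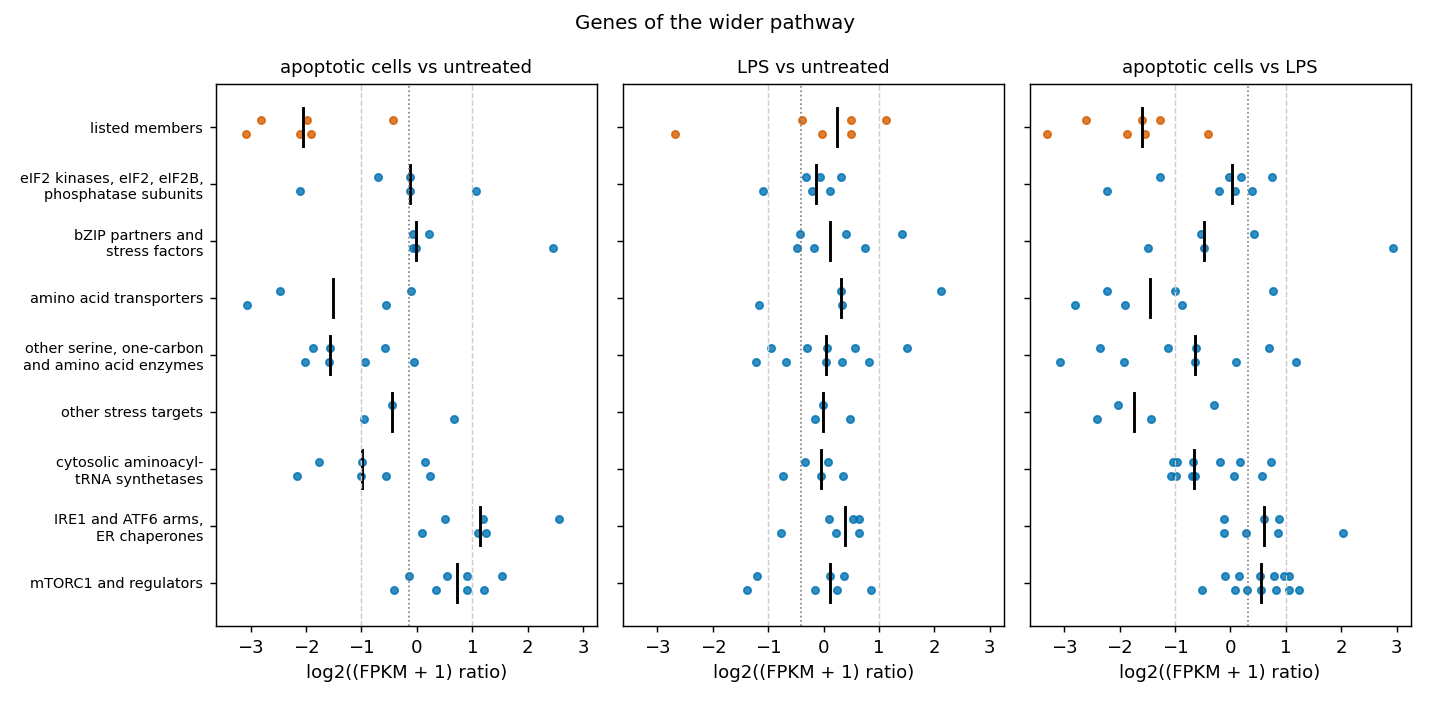
Log2((FPKM + 1) ratio) of the listed genes (orange) and of 8 lists of the wider pathway (blue) in the 3 comparisons, 1 point per gene above 0 in both libraries. Black bars are list medians, dotted lines the median of all genes and dashed lines 2-fold. Transporters and enzymes sit left of the median of all genes with apoptotic cells, and the IRE1 and ATF6 list sits right of it against untreated.

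Folding genes of the other arms of the endoplasmic reticulum response were higher with apoptotic cells than untreated where they had a ratio. IRE1 and ATF6 raise chaperones and folding enzymes, separately from ATF4. Of 6 such genes with a ratio 4 were at least 2-fold higher than untreated and 0 lower, with a list median of 1.15: Sdf2l1 at 85.5 against 13.5 FPKM, Pdia6 at 156 against 65.2 FPKM, Dnajb11 at 68.5 against 31.3 FPKM and Creld2 at 56.7 against 24.3 FPKM. These 4 encode chaperones, their cofactors or folding enzymes. The background share of higher genes was 12.4%. Calr, Hsp90b1 and Manf, listed at 232, 202 and 41.5 FPKM untreated and at 0 with apoptotic cells, have no ratio. Against LPS 1 of 7 was higher, beside 15.7% of all genes, with a median of 0.61 beside 0.32. With LPS 0 of 6 were at least 2-fold apart from untreated. Xbp1 and Hspa5 were listed at 0 untreated and with apoptotic cells and at 135 and 1076 FPKM with LPS.

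Close relatives of the stress-response genes had their own patterns. Trib1 was at 2.31, 3.71 and 4.64 FPKM and Shmt1, the cytosolic counterpart of Shmt2, at 5.11, 2.19 and 3.95 FPKM. Of the 3 relatives with a ratio, including Atf5, 0 were at least 2-fold apart in either comparison with untreated. Sesn1 was listed at 0, 14.8 and 1.02 FPKM and Chac2 at 0, 7.24 and 4.30 FPKM. The 0 values give these genes no ratio to untreated.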

How the data were processed

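RNA of 3 libraries, 1 per condition, was analysed. The deposited values were taken as FPKM. Per the submitters' processing notes the tools were Cufflinks 2.2.1, Cuffdiff, TopHat2 2.1.0 and cutadapt 1.14, and the build mm10, without their roles. The file headers give no unit. Options, annotation and strandedness are not stated, so reads of overlapping genes may not be separated. Ratios were log2((FPKM + 1) / (FPKM + 1)) for genes above 0 in both libraries and with a mean of at least 1 FPKM, with a 2-fold threshold and no test. Depth was estimated from 182 to 283 low genes with 1 GENCODE M21 transcript, after taking 200 bases off each length. The steps were only partly regular (mean cosine 0.326 to 0.341, where 1 is exact), so reads were not recovered and the intervals are approximate. They use the longest principal transcript.

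The 10 genes, the 13 pathway and 7 marker lists and the alternatives were chosen with earlier results of these data known. The genes named are the 10, a preset group of pathway genes, those with the largest ratios of a list, and those listed at 0 in one library and above 10 FPKM in another. Nars, Gars, Dars, Rars, Cebpg, Trib1, Shmt1, Sesn1 and Chac2 were named after their values were seen. Of the lists, older symbols were matched through RefSeq synonyms. Alternatives were other pseudocounts, filters, thresholds and scalings, a listed 0 taken as a value, and centring on the median of all genes, which was added after seeing the data. The calculation was tested on simulated data. Python 3.11.15, pandas 2.3.3, scipy 1.17.1 and matplotlib 3.10.9 were used.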

Additional observations from a re-analysis of the deposited data

How the results depend on the processing

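With 1 library per condition no library could be left out. No paired analysis was possible because each group has 1 library. None of the 189 ratios of single genes under the alternatives changed sign where the reported ratio was at least 2-fold; 157 moved by less than 0.3 (log2) and 32 by more. The counts and medians of the listed genes that are not named here stayed within 1.5 times or 0.3 (log2). Of 597 medians of the wider lists, 419 stayed within 0.3, 175 moved further and 3 reversed. With a pseudocount of 5 FPKM, the enzyme list went from -1.57 to -0.54 and the transporters from -1.52 to -1.05 with apoptotic cells against untreated. Median-of-ratios scaling gave 3 genes higher with LPS than untreated (median 0.85) and a median of -2.005 for apoptotic cells against LPS. Centring on the median of all genes gave medians of 0.64 and -1.92 for those comparisons. When 0 was used as a measured value, 2 genes (Sesn2 and Shmt2) were higher with apoptotic cells than untreated, 2 were higher and 2 lower with LPS, and 1 was higher with apoptotic cells than with LPS. A 4-fold threshold left 3 genes lower with apoptotic cells than untreated, 2 lower than with LPS and 0 higher with LPS. Taking a 0 as a value also reversed 3 list medians, to -1.05 for large peritoneal macrophage markers with apoptotic cells, 1.89 for B cell markers with LPS and -2.29 for glucocorticoid-responsive genes between the treatments, and moved the synthetases from -0.99 to 3.37 with apoptotic cells against untreated. Over all genes, those at least 2-fold lower with apoptotic cells than untreated numbered 554 as reported, 228 with a pseudocount of 5 FPKM, 268 at a mean of at least 5 FPKM, 988 with rescaled sums and 1378 with 0 as a value. Those lower with LPS numbered 896 as reported, 321 with that pseudocount, 429 at that mean, 1418 with rescaled sums, 436 with median-of-ratios scaling and 1674 with 0 as a value. Depth limits Chac1 most, at an estimated 16 reads with apoptotic cells.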

Other observations

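Genes through which the mTORC1 inhibitors act, and genes of other stress pathways that share targets with ATF4, were compared in the same way. The 8 mTORC1 genes with a ratio had a median of 0.72 with apoptotic cells against untreated, beside -0.13 for all genes. Of them 2 were at least 2-fold higher and 0 lower, where 12.4% of all genes were higher and 16.4% lower. The 2 were the lysosomal scaffold genes Lamtor4, present under its older symbol 0910001L09Rik, at 68.8 against 23.2 FPKM, and Lamtor3 at 89.2 against 38.1 FPKM. Against LPS, 3 of 13 were higher, beside 15.7% of all genes. Among them was Nprl2 (6.22 against 2.05 FPKM), a subunit of the GATOR1 complex that inhibits mTORC1. Of the targets of p53, which also raises sestrin genes, 5 had a ratio against untreated. Phlda3 was higher with apoptotic cells (9.38 against 1.18 FPKM), and Pmaip1 (1.70 against 11.1 FPKM) and Zmat3 (2.21 against 6.11 FPKM) were lower. These are 1 higher and 2 lower of 5, beside the same 12.4% and 16.4% of all genes. Cdkn1a, the cell cycle inhibitor p21, was at 41.9 FPKM untreated, 34.5 FPKM with apoptotic cells and 156 FPKM with LPS. NRF2 targets could not be described, since 2 of 9 were analysed. Of those, Nqo1 was at 10.1, 8.92 and 14.9 FPKM and Gsr was listed at 36.7, 0 and 0 FPKM.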
